A study of Mus musculus with 12 samples.

Results

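The 3 caudal homeobox genes of the mouse, Cdx1, Cdx2 and Cdx4, were followed through 12 RNA sequencing libraries. The members were chosen by their symbols and all 3 were present among the 24736 genes of the table. The cells had been differentiated from embryonic stem cells for 72 h with 10 ng/ml bFGF and 5 µM LGK974, which stops cells from secreting WNT ligands. The design held 4 groups of 3 biological replicates. EpiLC (epiblast-like cells) were wild type and had no further treatment. CEpiLC (caudal epiblast-like cells) were wild type and were given CHIR99021, a GSK3 inhibitor that activates WNT signalling, from day 2 to day 3. SOX2-OFF and SOX2-ON cells also had CHIR99021 and were of the SOX2 TetON line. In that line the endogenous Sox2 gene was disrupted (Sox2-/-) and a Sox2 cDNA under doxycycline control had been inserted at the Hprt locus. Doxycycline was removed during differentiation of SOX2-OFF and kept at 1 µg/ml in SOX2-ON. The line was made by picking colonies grown from single electroporated cells, and it was compared with wild-type cells of the parental XY line, so that each cell carried a single copy of X-linked genes such as Cdx4. SOX2-ON differed from SOX2-OFF in doxycycline as well as in SOX2, and both differed from EpiLC and CEpiLC in the line.

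Cdx genes encode homeodomain transcription factors related to the caudal gene of the fly. Together with the genes Gsx1, Gsx2 and Pdx1 they form the ParaHox group, the sister of the Hox genes. In the embryo they are switched on in the primitive streak and tail bud by WNT, FGF and retinoic acid signals, and they are known for driving the growth of the trunk and tail and for activating Hox genes of the central groups. Cdx2 is further known as a regulator of the trophectoderm and the intestine, Cdx1 as a regulator of vertebral identity and the intestine, and Cdx4 for a role in early blood formation.

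The 3 genes have the same structure of 3 exons, with the homeobox spread over exons 2 and 3. Exon 2 was 146 bases long in each gene and is shown for the pair whose levels moved together below, with the bases that differ between them in capitals and read along the coding strand. In Cdx2 it lies at chr5:147303181-147303326 on the minus strand and in Cdx4 at chrX:103328009-103328154 on the plus strand (GRCm38, GENCODE).
Cdx2 exon 2: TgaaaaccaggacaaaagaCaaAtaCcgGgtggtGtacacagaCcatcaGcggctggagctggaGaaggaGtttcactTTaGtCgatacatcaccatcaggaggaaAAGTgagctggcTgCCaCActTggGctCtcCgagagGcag
Cdx4 exon 2: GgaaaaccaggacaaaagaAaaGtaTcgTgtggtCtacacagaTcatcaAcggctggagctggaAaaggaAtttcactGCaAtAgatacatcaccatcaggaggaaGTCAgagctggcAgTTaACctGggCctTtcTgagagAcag
These stretches shared 118 of 146 bases (80.8%), and Cdx1 shared 112 with Cdx2 (76.7%) and 115 with Cdx4 (78.8%). The longest run of identical bases anywhere in the transcripts was 22 bases for Cdx2 and Cdx4, 17 for Cdx1 and Cdx4 and 16 for Cdx1 and Cdx2. The reads were 76 bases long, and none of the 1675, 2186 and 1888 stretches of that length in Cdx1, Cdx2 and Cdx4 occurred in another annotated gene, in the sense direction and without mismatches. All expected counts of the 3 genes were whole numbers. The reads of the 3 genes were therefore separable from one another by their sequence.

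The study built a reporter from a fragment of the first intron of Cdx2 (the intron spans chr5:147303327-147306444 in GRCm38) and altered the SOX2 motifs in it. The first 399 bases of both versions could be read here, and 6 bases at 2 sites differed between them. The windows below hold these sites, with the changed bases in capitals and positions counted from the first base of the fragment.
Site 1, unaltered, bases 98 to 136: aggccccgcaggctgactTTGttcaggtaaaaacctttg
Site 1, altered: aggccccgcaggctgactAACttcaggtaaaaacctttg
Site 2, unaltered, bases 204 to 243: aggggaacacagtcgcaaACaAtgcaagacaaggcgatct
Site 2, altered: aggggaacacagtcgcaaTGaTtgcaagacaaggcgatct
The SOX letters AACAAAG and AACAATG were found 2 times in the unaltered stretch, on either strand, and 0 times in the altered one. The TCF/LEF letters (CTTTG followed by AA, AT, TA or TT) were found 2 times in the unaltered stretch and 1 time in the altered one, because CTTTGTT at the first site reads AACAAAG on the other strand, so that both were lost together. The promoters of Cdx2 (chr5:147307200-147307499, minus strand) and Cdx4 (chrX:103321148-103321447, plus strand), from 250 bases before to 50 after the RefSeq start in GRCm38.p6, held none of these letters, nor the CDX letters TTTATNG or the T letters TCACACC, on either strand. Among 32841 promoters of that length, 16.9% held TCF/LEF letters, 9.4% SOX letters, 10.9% CDX letters and 4.0% T letters. No library tested the reporter, so these sequences show where SOX2 motifs stand in Cdx2 and carry no measurement here.

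The libraries held 10408252 to 27337740 expected counts, and 14196 genes had enough counts for the test across genes. Sox2 mRNA was at 119 to 171 TPM for EpiLC, 7.78 to 13.7 for CEpiLC, 12.3 to 21.2 for SOX2-OFF and 173 to 215 for SOX2-ON. The order of SOX2-ON over SOX2-OFF follows the labels, although the counts do not separate transgene from endogenous transcripts. SOX2-OFF was not below CEpiLC in Sox2 mRNA: the libraries overlapped, and the mean was higher, at 16.5 ± 4.48 TPM against 10.4 ± 3.01 (SD, n = 3). SOX2 protein was not measured in these libraries. The endogenous gene was disrupted in the SOX2 TetON line, so these mRNA levels do not give SOX2 protein levels. TPM, a level scaled by transcript length and by library, corrects for length and allows levels of the 3 genes to be compared. The 6 epiblast markers, among them Pou5f1, Dnmt3b and Utf1, summed to 2590 to 3065 TPM in EpiLC and to 841 to 1550 TPM in the other groups, with no marker under 1 TPM in every library of a group. Pou5f1 made up most of the sum outside EpiLC, with group means of 843 to 1075 TPM there and 887 TPM in EpiLC. Against EpiLC, 5 of the 6 markers fell in each other group. The median log2 fold change was -4.01 for CEpiLC, -2.88 for SOX2-OFF and -3.16 for SOX2-ON. Over all tested genes 20.1%, 30.6% and 29.1% were called lower in those comparisons. CEpiLC replicate 2 was low in Cdx genes and in Hox genes of groups 1 to 9. Its median log2 deviation from its group mean was -0.58 for the Cdx genes, -0.58 for Hox genes of groups 1 to 4 and -0.81 for groups 5 to 9. It was -0.28 for the 17 genes listed below for the caudal epiblast and tail bud. For Hox genes of groups 10 to 13 it was -0.29, and replicate 1 was lower (-0.60).

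In EpiLC the Cdx genes were at or near 0. Cdx1 read 0 TPM in all 3 libraries, Cdx2 0.18, 0 and 0.21 TPM and Cdx4 0, 0.07 and 0.1 TPM. Over the group, 0 reads of Cdx1, 7 of Cdx2 and 2 of Cdx4 were counted.

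In CEpiLC all 3 genes were expressed, and Cdx2 was the most abundant. Cdx2 reached 314, 169 and 192 TPM in replicates 1, 2 and 3 (225 ± 77.9, SD, n = 3). Cdx1 reached 65.7, 39.98 and 77.3 TPM (61.0 ± 19.1). Cdx4 reached 34.6, 10.5 and 44.0 TPM (29.7 ± 17.3), and replicate 2 was the lowest of the 3 for every gene. No CEpiLC value overlapped with any EpiLC value, as for 52.1% of all genes with enough counts to be tested.

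What CHIR99021 changed in wild-type cells was tested by CEpiLC against EpiLC with edgeR's quasi-likelihood test, with a gene called at a Benjamini-Hochberg adjusted p of at most 0.05. All 3 genes rose, against 22.1% of the tested genes called higher and 20.1% called lower. With EpiLC at or near 0, the 3 genes passed the filter on low counts through the groups with CHIR99021. The count of 3 is therefore no support for a rise of the set. Cdx2 was higher by a log2 fold change of 10.75 (standard error 0.44, edgeR adjusted p 1.84e-09). The ratio of its summed CPM (counts scaled to the library total) was 1958, with an exact 95% interval for counting error from 950 to 4871. Cdx1 was at least 295-fold higher, taking 3 counts per library as the limit for EpiLC (edgeR adjusted p 6.41e-08). Cdx4 rested on 1226 counts against 2, a ratio of 574 with a counting interval from 158 to 4742 (edgeR adjusted p 1.22e-06).

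In SOX2-OFF, Cdx2 and Cdx4 were far below CEpiLC while Cdx1 was not. Cdx2 read 31.9, 29.3 and 35.9 TPM (32.4 ± 3.37) and Cdx4 3.42, 2.82 and 4 TPM (3.41 ± 0.590). All of these values lay below the lowest CEpiLC library. SOX2-OFF and CEpiLC libraries were without overlap for 55.2% of all tested genes. Cdx1 read 53.1, 46.9 and 47.6 TPM (49.2 ± 3.37), which fell between the lowest and the highest CEpiLC library. Cdx1 was thus the most abundant Cdx gene in these 3 libraries.

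Against CEpiLC, Cdx2 fell by 2.79 on the log2 scale (standard error 0.22, edgeR adjusted p 7.34e-07) and Cdx4 fell by 3.12 (standard error 0.43, edgeR adjusted p 5.45e-05), in a comparison with 24.9% of genes called lower and 23.6% called higher. Cdx1 did not pass the test, at a log2 fold change of -0.29 (standard error 0.21, edgeR adjusted p 0.291). That outcome depended on 1 library. Without CEpiLC replicate 2 the log2 fold change of Cdx1 was -0.53 (edgeR adjusted p 0.0152), and it ran from -0.53 to -0.084 as each replicate was left out in turn. Against EpiLC, Cdx1 in SOX2-OFF was higher by at least 240-fold (edgeR adjusted p 3.73e-08). Cdx2 was higher by 7.96 (standard error 0.50, edgeR adjusted p 3.82e-08), and Cdx4, with 116 counts against 2, by a ratio of 67.7 (counting interval 18.3 to 566, edgeR adjusted p 0.000195). The background was 31.5% called higher and 30.6% called lower, and the limit of the filter given for CEpiLC against EpiLC held here too.

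In SOX2-ON the order of the genes was that of CEpiLC again, at lower levels. Cdx2 read 70.3, 51.8 and 74.9 TPM (65.7 ± 12.2). Cdx1 read 17.9, 11.96 and 15.9 TPM (15.2 ± 3.00). Cdx4 read 9.20, 9.43 and 11.1 TPM (9.91 ± 1.04), and its highest library stood above CEpiLC replicate 2 (10.5 TPM). For Cdx1 and Cdx2 no SOX2-ON library overlapped with CEpiLC, as for 59.5% of all tested genes.

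All 3 genes were lower in SOX2-ON than in CEpiLC, where 28.6% of genes were called lower and 27.9% higher. The log2 fold change was -2.03 for Cdx1 (standard error 0.23, edgeR adjusted p 2.04e-05), -1.82 for Cdx2 (standard error 0.21, edgeR adjusted p 9.89e-06) and -1.61 for Cdx4 (standard error 0.38, edgeR adjusted p 0.00254). Against EpiLC all 3 were higher, where 30.7% of genes were called higher and 29.1% lower, again with that limit of the filter. Cdx1 was at least 71.7-fold higher (edgeR adjusted p 4.09e-07), Cdx2 was higher by a log2 fold change of 8.93 (standard error 0.47, edgeR adjusted p 1.08e-08), and Cdx4 was higher by a ratio of 194 from 391 counts against 2 (counting interval 53.5 to 1612, edgeR adjusted p 6.9e-06). EpiLC and SOX2-ON thus had high Sox2 mRNA in common and differed widely in Cdx level.

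**Figure D1:**
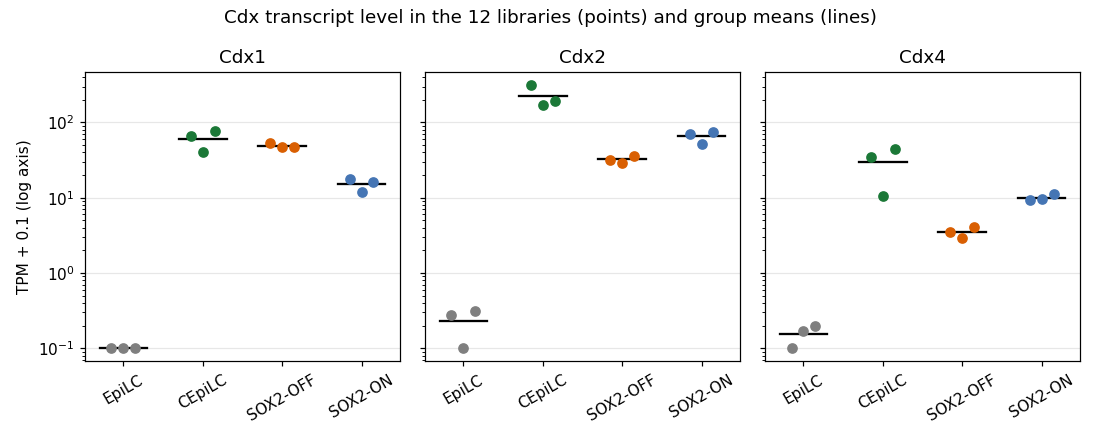
TPM plus 0.1 on a log axis for each library (points, 3 per group) and the group mean (lines), 1 panel per gene. EpiLC libraries lie at 0.21 TPM or below for every gene, Cdx1 is at 46.9 to 53.1 TPM in SOX2-OFF, and Cdx2 and Cdx4 are lowest there among the 3 groups with CHIR99021.

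Within the SOX2 TetON line the 3 genes moved in different directions. What SOX2 and doxycycline changed there under CHIR99021 is given by SOX2-ON against SOX2-OFF. Cdx1 fell by 1.74 on the log2 scale (standard error 0.23, edgeR adjusted p 0.000208). Cdx2 rose by 0.97 (standard error 0.22, edgeR adjusted p 0.00481) and Cdx4 rose by 1.5 (standard error 0.44, edgeR adjusted p 0.0203). The background was 14.8% of genes called higher and 14.1% lower. None of the 3 genes had overlapping libraries, which was so for 43.5% of all tested genes. The call of Cdx4, which had 34 to 43 counts per SOX2-OFF library, was lost under limma-voom (1.51 on the log2 scale, adjusted p 0.152). It was also lost without SOX2-OFF replicate 1 (1.5, edgeR adjusted p 0.0583) and without SOX2-OFF replicate 2 (1.37, edgeR adjusted p 0.0805).

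**Figure D2:**
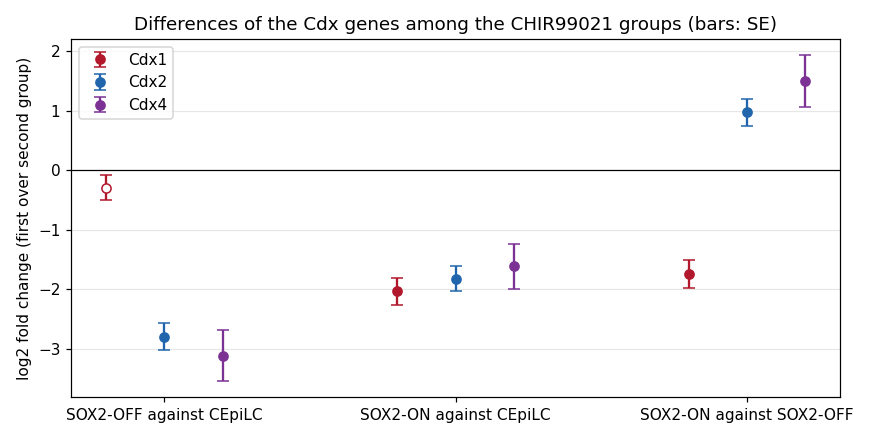
Log2 fold changes of the 3 genes (points, colour by gene) with standard errors (bars) in the comparisons among the groups with CHIR99021. Filled points passed an adjusted p of 0.05, and the open point is Cdx1 in SOX2-OFF against CEpiLC (-0.29), while in SOX2-ON against SOX2-OFF Cdx1 lies at -1.74 and Cdx2 and Cdx4 at 0.97 and 1.5.

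Ordered by level, Cdx2 ran from CEpiLC through SOX2-ON and SOX2-OFF to EpiLC, and each step passed the test. Cdx4 had the same order, with libraries of CEpiLC and SOX2-ON that overlapped. Cdx1 ran from CEpiLC through SOX2-OFF and SOX2-ON to EpiLC, and the first step did not pass the test. Because the samples were bulk cultures, fewer cells with a Cdx gene on and less Cdx mRNA per cell cannot be told apart.

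The summed level of the 3 genes overlapped between both SOX2 TetON groups, while the share of each gene in it did not. The summed level was 414, 220 and 314 TPM in CEpiLC (316 ± 97.5), 88.4, 79.0 and 87.6 TPM in SOX2-OFF (85.0 ± 5.21) and 97.3, 73.2 and 102 TPM in SOX2-ON (90.8 ± 15.4). SOX2-ON and SOX2-OFF overlapped, with a difference of 5.79 TPM (exact two-sided permutation p 0.6). That difference was 0.238 TPM without SOX2-ON replicate 3 and 14.6 TPM without SOX2-ON replicate 2. Cdx1 made up 54.4 to 60.0% of the sum in SOX2-OFF, 15.6 to 18.3% in SOX2-ON and 15.8 to 24.6% in CEpiLC. Cdx2 made up 36.1 to 41.1%, 70.8 to 73.5% and 61.3 to 77.0% of the sum in those groups. The share of Cdx4 was 3.57 to 4.57% in SOX2-OFF, 9.45 to 12.9% in SOX2-ON and 4.78 to 14.02% in CEpiLC.

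**Figure D3:**
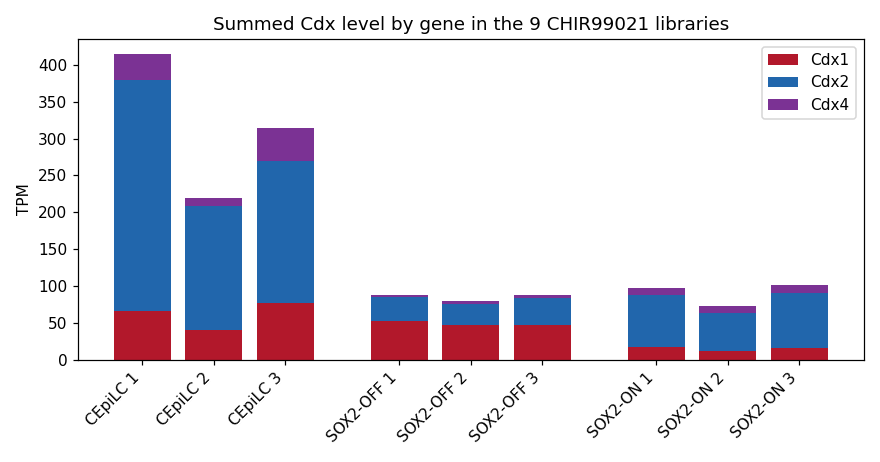
Stacked bars of TPM for Cdx1, Cdx2 and Cdx4 in each of the 9 libraries with CHIR99021. The sums of SOX2-OFF (79.0 to 88.4 TPM) and SOX2-ON (73.2 to 102 TPM) overlap, while the Cdx1 part is larger than the Cdx2 part in the 3 SOX2-OFF bars alone.

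The log2 ratio of Cdx1 to Cdx2 TPM was 0.61 ± 0.18 (SD, n = 3) in SOX2-OFF, -1.88 ± 0.50 in CEpiLC and -2.11 ± 0.13 in SOX2-ON. The difference was 2.49 for SOX2-OFF minus CEpiLC and -2.72 for SOX2-ON minus SOX2-OFF, each with a two-sided exact permutation p of 0.1 and 0.2 after adjustment over the 6 ratio tests. With 3 libraries against 3, 0.1 is the smallest p this test can give. SOX2-ON and CEpiLC overlapped in this ratio, with a difference of -0.23 (exact permutation p 0.7, adjusted 0.8) that became 0.06 without CEpiLC replicate 3. The log2 ratio of Cdx4 to Cdx2 was -3.26 ± 0.11 in SOX2-OFF, -2.71 ± 0.24 in SOX2-ON and -3.11 ± 0.94 in CEpiLC. It was higher in SOX2-ON than in SOX2-OFF without overlap, by 0.54 (exact permutation p 0.1, adjusted 0.2), and CEpiLC overlapped with both.

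**Figure D4:**
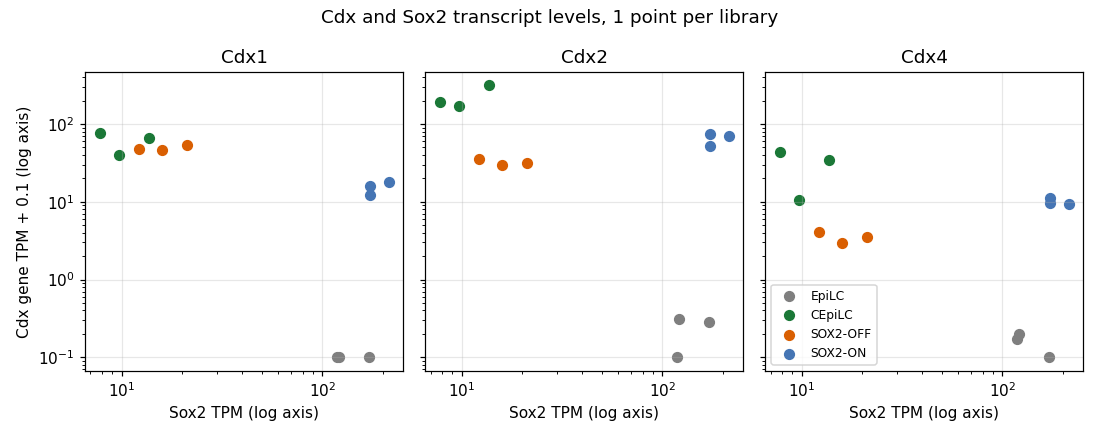
TPM of each Cdx gene plus 0.1 against TPM of Sox2, both on log axes, with 1 point per library and colour by group. SOX2-ON and EpiLC lie at 119 to 215 TPM of Sox2 and are far apart in every Cdx gene, and CEpiLC and SOX2-OFF lie at 7.78 to 21.2 TPM of Sox2 and part in Cdx2 and Cdx4 but overlap in Cdx1.

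The genes with a profile most like each Cdx gene were named by the Pearson correlation of log2 CPM over the libraries, among about 10871 genes. Over all 12 libraries, where the gap between EpiLC and the rest sets most of the correlation, Cdx1 was closest to Sp5 (r = 0.997), T (0.995), Evx1 (0.995), Epha2 (0.990) and Fst (0.990). Sp5 is a WNT target gene and T (Brachyury) and Evx1 encode transcription factors of the primitive streak. Cdx2 was closest to Wnt5a (0.989), Tnfrsf19 (0.989), Axin2 (0.986), Porcn (0.985) and Cited2 (0.985). Wnt5a encodes a WNT ligand, Axin2 a feedback inhibitor of the pathway and Porcn an enzyme that WNT ligands need for secretion. Cdx4 was closest to Chsy1 (0.982), Mmd (0.981), Cdx2 (0.971), Cited2 (0.969) and Slc39a6 (0.964).

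T was at 711 ± 215 TPM for CEpiLC, 809 ± 19.3 for SOX2-OFF and 152 ± 17.9 for SOX2-ON (SD, n = 3), lowest in SOX2-ON of these groups, as Cdx1 was, but highest on average in SOX2-OFF, where Cdx1 was highest in CEpiLC. Over the 9 libraries with CHIR99021, Cdx2 and Cdx4 correlated with r = 0.918 (Spearman's rho 0.967), Cdx1 and Cdx2 with r = 0.301 (rho 0.250), and Cdx1 and T with r = 0.916 (rho 0.767). These values describe 3 clusters of 3 libraries and carry no test. In those 9 libraries the genes close to Cdx1 included Abl1 (0.985), Glrx5 (0.982) and 5031439G07Rik (0.975). Cdx2 was closest to Tbcd (0.991), Hoxb9 (0.990), Kif18b (0.990), Pomgnt2 (0.988) and Kat2a (0.983), and Cdx4 to Panx1 (0.985), Map2k3 (0.977), Snx11 (0.971), Cenpv (0.966) and Nr6a1 (0.965). Of the genes named for the 9 libraries, Hoxb9 alone belonged to the gene lists below, and none was also named for the 12 libraries.

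Hox genes, which CDX factors are known to activate, were counted by paralogue group. Of 12 genes listed for paralogue groups 1 to 4, 10 were tested, all 10 rose in CEpiLC over EpiLC, 9 fell in SOX2-OFF against CEpiLC and 9 in SOX2-ON against CEpiLC. Over all tested genes 22.1% were called higher in CEpiLC over EpiLC. Against CEpiLC, 24.9% were called lower in SOX2-OFF and 28.6% in SOX2-ON. In SOX2-ON against SOX2-OFF, 4 of the 10 fell and none rose, beside 14.1% of all tested genes called lower and 14.8% higher. The median log2 fold change of the 10 there was -1.05 against -0.01 over all tested genes. In 8 of the 10 a group compared in CEpiLC against EpiLC was at 3 counts or fewer per library, so that these genes passed the filter on low counts through the groups where they were high, and the count of 10 is no support for a rise of the list. Hoxb1, the most strongly changed, was at 162 ± 106 TPM for CEpiLC, 92.9 ± 30.3 for SOX2-OFF and 1.94 ± 0.448 for SOX2-ON (SOX2-ON over SOX2-OFF -5.63 on the log2 scale, standard error 0.51, edgeR adjusted p 5.35e-06). Hoxb2 and Hoxb3 were also among those that fell, by 4.25 and 1.72 on the log2 scale.

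Of 15 genes of groups 5 to 9, 12 were tested, 11 rose in CEpiLC (the same limit held for 9 of the 12), and 8 fell in SOX2-OFF and 9 in SOX2-ON against CEpiLC. The shares over all tested genes for these comparisons were those given for groups 1 to 4. In SOX2-ON against SOX2-OFF, 14.8% of all tested genes were called higher and 14.1% lower. Of the 12 genes, 4 rose, 1 fell and 7 did not pass the test, with a median of 0.68. The 4 were Hoxb7 (1.67), Hoxb8 (2.27), Hoxc8 (2.15) and Hoxb9 (2.04), and the gene that fell was Hoxc5 (-1.82). Hoxb9 was at 99.4 ± 56.7 TPM for CEpiLC, 1.55 ± 0.207 for SOX2-OFF and 6.55 ± 2.64 for SOX2-ON. Of the 12 genes of groups 10 to 13, 3 were tested (Hoxa10, Hoxc13 and Hoxd13). None of these was called in CEpiLC over EpiLC by edgeR, and their adjusted p values were 0.287, 0.638 and 0.587. SOX2-ON exceeded CEpiLC for all 3 of them, beside 27.9% of all tested genes called higher, and none reached a group mean above 2.01 TPM. For 1 of the 3, a group in this comparison was at 3 counts or fewer per library. The limit given for groups 1 to 4 thus held here too, and the count of 3 is no support for a rise of the list.

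**Figure D5:**
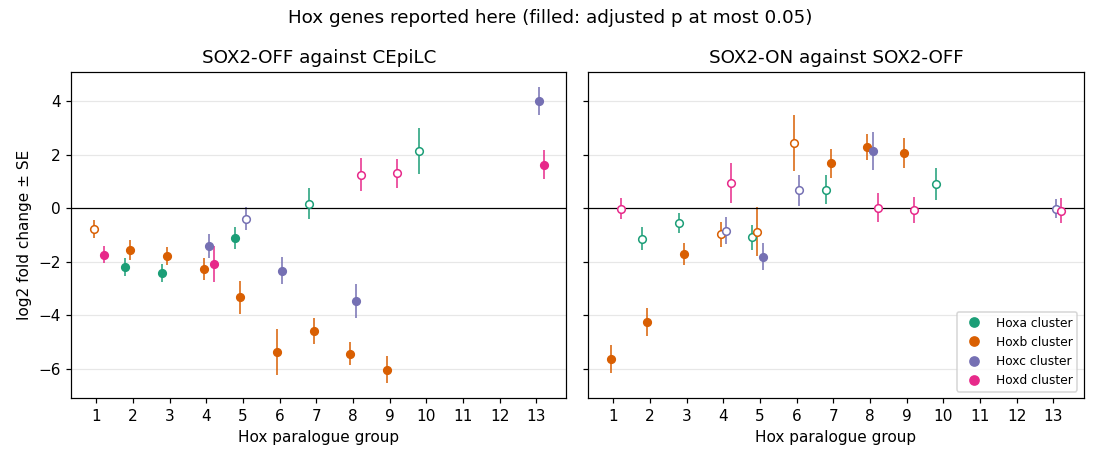
Log2 fold change with its standard error for the tested Hox genes reported here, by paralogue group (x axis) and cluster (colour), for SOX2-OFF against CEpiLC and SOX2-ON against SOX2-OFF, filled where the adjusted p was at most 0.05. In the second panel the called genes of groups 1 to 5 lie below 0 (down to -5.63 for Hoxb1) and those of groups 7 to 9 above it (up to 2.27 for Hoxb8).

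The other ParaHox genes were not expressed at a level that could be tested. Gsx1, Gsx2 and Pdx1 had group means of at most 0.423 TPM, and 0 of the 3 passed the filter on low counts.

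Among 17 genes listed for the caudal epiblast and tail bud, 16 rose in CEpiLC over EpiLC, against 22.1% of all tested genes, and Cyp26a1, which encodes an enzyme that degrades retinoic acid, did not pass the test. In 5 of the 17 EpiLC was at 3 counts or fewer per library, so that the limit given for the Hox lists held for them too. All 17 fell in SOX2-ON against CEpiLC, with a median log2 fold change of -2.56, beside 28.6% of all tested genes called lower. In SOX2-OFF against CEpiLC, 11 fell, 1 rose (Cyp26a1, by 3.22) and 5 did not pass, with a median of -1.22. Over all tested genes 24.9% were called lower and 23.6% higher there. In SOX2-ON against SOX2-OFF 12 fell and 2 rose, Gbx2 (1.38) and Hes3 (4.06), with a median of -1.33. The shares over all tested genes were 14.1% lower and 14.8% higher. Hes3 read 0, 0.25 and 0 TPM in SOX2-OFF and 1.91, 2.71 and 0.81 TPM in SOX2-ON, so its fold change is taken against a group near 0. Gbx2 encodes a homeobox factor and was at 127 ± 29.0 TPM for CEpiLC, 25.5 ± 8.38 for SOX2-OFF and 67.8 ± 11.7 for SOX2-ON, the same order as Cdx2 and Cdx4. Nkx1-2, a homeobox gene of the caudal epiblast, was at 344 ± 94.7, 43.1 ± 9.37 and 25.6 ± 6.62 TPM in CEpiLC, SOX2-OFF and SOX2-ON. The order of its means was that of Cdx1. Its lowest CEpiLC library (244 TPM) stood above its highest SOX2-OFF library (52.9 TPM), however, while Cdx1 overlapped between these groups. Of all tested genes, 55.2% were without overlap there.

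Genes of the signals that act on Cdx genes were read from fixed lists too. Of 9 WNT pathway genes, 6 rose and 2 fell in CEpiLC over EpiLC, and in SOX2-ON against SOX2-OFF 5 fell, 1 rose and 3 did not pass. The feedback gene Axin2 was at 93.6 ± 10.4 TPM in SOX2-OFF and 93.8 ± 5.42 in SOX2-ON (-0.05 on the log2 scale, standard error 0.15, edgeR adjusted p 0.847). Lef1, which encodes a DNA-binding partner of β-catenin, fell by 1.06 and Tcf7l1, which encodes a repressor of the family, rose by 0.69. Of 5 tested retinoic acid genes 4 rose in CEpiLC, and in SOX2-ON against SOX2-OFF 1 fell (Cyp26a1). Of 10 FGF genes 3 rose and 2 fell in CEpiLC, and 4 rose and 2 fell in SOX2-ON against SOX2-OFF. For CEpiLC over EpiLC these FGF shares lay near those over all tested genes (22.1% higher and 20.1% lower), and the shares for SOX2-ON against SOX2-OFF stand beside 14.8% higher and 14.1% lower. The same shares over all tested genes stand beside the WNT and retinoic acid counts above.

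Of 7 SOX, pluripotency and Nodal genes, 3 rose and 2 fell in CEpiLC over EpiLC, beside 22.1% of all tested genes called higher and 20.1% lower. Sox3, the SOXB1 relative of Sox2, was at 55.2 ± 7.58 TPM for EpiLC, 20.6 ± 7.18 for CEpiLC, 3.05 ± 0.808 for SOX2-OFF and 9.42 ± 2.54 for SOX2-ON, so that among the groups with CHIR99021 its order was that of Cdx2 and Cdx4. Nodal and Eomes, genes of the early primitive streak, were highest in SOX2-OFF, at 65.2 ± 15.3 and 45.9 ± 13.1 TPM. The log2 fold change of SOX2-ON over SOX2-OFF was -2.25 for Nodal and -3.82 for Eomes.

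Because Cdx2 also marks the trophectoderm and the intestine, markers of both were read in every group. The 15 trophectoderm and trophoblast markers summed to 267 to 347 TPM for EpiLC, 280 to 416 for CEpiLC, 924 to 1123 for SOX2-OFF and 328 to 542 for SOX2-ON. The keratins Krt8 and Krt18, which streak and endoderm cells express too, made up most of it. The markers Tpbpa and Elf5 were at 0 and at most 0.1 TPM in every library. Against CEpiLC, Tead4 and Esx1 rose in both SOX2 TetON groups and Tfap2c rose in SOX2-ON. Tead4 was at 1.21 ± 0.357 TPM for CEpiLC, 12.3 ± 1.24 for SOX2-OFF and 9.86 ± 3.85 for SOX2-ON. Esx1 was at 0.590 ± 0.453, 5.81 ± 1.25 and 8.91 ± 3.35 TPM in those groups, and Tfap2c at 2.55 ± 0.604, 3.60 ± 1.45 and 31.1 ± 9.01 TPM. Tead4, Esx1 and Tfap2c were chosen here after their values were seen. Against CEpiLC, 9 of 13 tested markers rose in SOX2-OFF, beside 23.6% of all tested genes called higher. In SOX2-ON, 7 rose and 2 fell, beside 27.9% of all tested genes called higher and 28.6% lower. The part of such cells in the Cdx levels was not tested. The 10 intestinal markers summed to 2.13 to 6.65 TPM over all libraries, and Alpi and Fabp2 were at 0 in all of them. The 8 markers of extraembryonic and lateral mesoderm summed to 6.48 to 23.9 TPM. The 8 fibroblast markers, from feeder cells for example, summed to 57.9 to 122 TPM in the wild-type groups and 21.3 to 44.6 TPM in the SOX2 TetON groups. Acta2 and Thy1 made up most of this gap, while Dcn and Lum were higher on average in both SOX2 TetON groups. Against CEpiLC, 1 of the 8 rose and 2 fell in SOX2-OFF, and 2 rose and 2 fell in SOX2-ON. These counts stand beside 23.6% higher and 24.9% lower, and 27.9% higher and 28.6% lower, over all tested genes. The part of such cells in the differences between the lines was not tested.

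Genes beside the Cdx genes were compared for the same contrasts, over tested genes whose start lay within 500 kb. The start is here the lowest coordinate of a gene, whatever its strand. Distances are between these starts, not between the sites where transcription begins. Cdx1 lies on chromosome 18, from 61018862 to 61036199 on the minus strand (GRCm38.p6), Cdx2 on chromosome 5, from 147300900 to 147307249 on the minus strand, and Cdx4 on chromosome X, from 103321398 to 103330224 on the plus strand. Over each of these chromosomes the median log2 fold change was between -0.03 and 0.12 in all 6 comparisons. Around Cdx1, 7 of 15 genes fell and 0 rose in SOX2-ON against SOX2-OFF, where 14.1% of all tested genes were called lower and 14.8% higher, with a median of -0.45. The nearest by these starts were Slc6a7, 23.5 kb away (-1.88, standard error 0.37, edgeR adjusted p 0.00306), and Pdgfrb, 26.3 kb away (-1.80, standard error 0.14, edgeR adjusted p 1.27e-06). Slc6a7 also rose in SOX2-OFF over CEpiLC, by 3.48 (standard error 0.45, edgeR adjusted p 7.96e-05), where Pdgfrb fell by 0.93 and Cdx1 itself did not pass the test.

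Around Cdx2, 2 of 10 genes rose and 0 fell in SOX2-ON against SOX2-OFF, with a median of -0.05, which is near the shares over all genes. The nearest by lowest coordinate was Flt3, 29.8 kb away, which encodes a receptor tyrosine kinase of blood progenitors. It fell with Cdx2 in SOX2-OFF against CEpiLC (-2.30, standard error 0.64, edgeR adjusted p 0.00954) but was lower in CEpiLC than in EpiLC (-1.12, standard error 0.42, edgeR adjusted p 0.0487), where Cdx2 rose. Around Cdx4, 1 of 8 genes rose and 1 fell, also near those shares, with a median of 0.10. Chic1, 35.0 kb away, rose by 0.56 in CEpiLC over EpiLC (edgeR adjusted p 0.00257) and by 0.36 in SOX2-ON over SOX2-OFF (edgeR adjusted p 0.0393).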

How the data were processed

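Strand-specific single-end reads of 76 bp were trimmed by the authors with cutadapt 1.16, aligned with STAR 2.5.2a to mm10 and assigned to genes with RSEM 1.3.0, per the labels. The deposited table gives an expected count, which need not be whole, and the TPM that the authors took from RSEM for each gene and library. Of the values in a library, 2.59 to 3.43% were not whole. Expected counts were rounded here, and TPM was used for levels and shares. The 12 libraries were grouped by their labels and none was left out. Because the authors' tool splits reads shared by several genes, the sequences of the Cdx transcripts were compared.

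Genes were filtered with filterByExpr and tested with edgeR 4.0.16 (quasi-likelihood test, TMM scaling with factors from 0.970 to 1.02, a single model of 12 libraries, no covariates, adjustment over 14196 genes, R 4.3.3). Standard errors derive from the F statistic. A group in which no library had more than 3 counts was taken to be at the floor. Intervals of ratios are exact (scipy 1.17.1) and cover counting error alone. Ratios of Cdx genes were compared by exact permutation tests in R. Alternatives were RLE scaling, library size alone, other count filters, DESeq2 1.42.0 (the study used DESeq2), limma-voom (limma 3.58.1), fits of 6 libraries, the replicate number as a block, removal of the chromosome median and leaving out each library. Rn45s, a ribosomal transcript, made up 0.149 to 3.17% of each library.

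The members and gene lists were chosen with earlier results of these data known. The text names the Cdx genes, Sox2, the 5 genes most like each Cdx gene (mean of at least 2 log2 CPM), tested genes within 500 kb and members of the lists. Some genes that this rule names are not reported here. Sequences come from GENCODE transcripts, RefSeq promoters and the oligonucleotide list of the study. The reporter fragment beyond its first 399 bases was not analysed here. A RefSeq position was found for 24076 genes and for 13872 of those tested. No pair of replicates agreed within sampling noise (chi-square per degree of freedom 7.73 to 44.4). Whether the replicate numbers of EpiLC and CEpiLC pair these samples is not given by the labels. The deviations of same-numbered libraries correlated weakly, with r of 0.120, 0.132 and 0.103. Libraries of different numbers were not compared, so these values cannot establish a pairing. The printed values come from the model without the replicate number as a block, and the block was fitted as an alternative. In the other 5 comparisons at least 1 correlation was under 0.1. The labels call the replicates biological and give no batch or date.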

Additional observations from a re-analysis of the deposited data

How the results depend on the processing

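Over 42 results and 483 alternative values, 478 kept their direction and their side of the threshold, or moved by less than the spread between replicates. No log2 fold change of a Cdx gene changed sign. In 5 comparisons of a ratio or share with CEpiLC, all between groups that overlapped, the sign changed when 1 CEpiLC library was left out. Without replicate 2 this was the Cdx4 share (2.03 to -0.11 percentage points) and the log2 ratio of Cdx4 to Cdx2 (0.39 to -0.06) of SOX2-ON. Without replicate 3 it was the Cdx2 share (0.787 to -4.23) and the log2 ratio of Cdx1 to Cdx2 (-0.23 to 0.06) of SOX2-ON, and the log2 ratio of Cdx4 to Cdx2 of SOX2-OFF (-0.15 to 0.34). These 5 sign changes were smaller than the spread between replicates and are among the 478. The values outside the 478 concern 3 results. Cdx4 in SOX2-ON against SOX2-OFF (1.5) was 1.51 by limma-voom, with an adjusted p of 0.152, and ran from 1.37 to 1.63 as each replicate was left out, with adjusted p values from 0.000292 to 0.152 over all its alternatives. Cdx1 in SOX2-OFF against CEpiLC ran from -0.53 to -0.084 as each replicate was left out, and passed the threshold without CEpiLC replicate 2. The difference of 7.08 percentage points in the Cdx4 share between SOX2-ON and SOX2-OFF became 5.20 when shares were taken over CPM, which does not divide by length. With the replicate number as a block, Cdx2 in CEpiLC against EpiLC was 10.73 on the log2 scale against 10.75, and the block changed no call of a Cdx gene in the 6 comparisons. Counts of called genes stayed within 1.5 times of the main counts under every setting run. The summed Cdx level was not run in CPM, since that unit has another scale. Depth limits Cdx4 in SOX2-OFF (34 to 43 counts per library) and every fold against EpiLC.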
